A study of Mus musculus with 12 samples.

Results

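A group of 10 genes of prostanoid synthesis and signalling was followed in the abdominal aorta of mice with and without CCN2 in smooth muscle cells (SMCs). They were the rows of the deposited expression table whose mouse symbol was Ptgs1, Ptgs2, Ptges, Ptgis, Ptgds, Tbxas1, Ptger2, Ptger3, Ptger4 or Ptgir (10 of 55092 listed features). RNA-Seq of the infrarenal segment was available from 12 male mice in 4 groups of 3. CFS and CFA mice were CCN2fl/fl, with the floxed gene and no Cre, and received saline or angiotensin II (Ang II). CSS and CSA mice were CCN2SMCΔ, floxed mice that also carried the tamoxifen-inducible Myh11–Cre-ERT2 transgene, and received saline or Ang II in the same way. Mice were given 5 tamoxifen doses from 8 weeks of age, followed by a washout of 2 weeks. Ang II was infused at 500 ng/kg/min, and tissue was taken on day 7. The driver recombines only in cells that express the smooth muscle myosin gene Myh11, so other cells of the wall keep the floxed gene, and whole tissue was sequenced. Each library came from 1 mouse, and p-values measure the spread between mice.

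Prostanoids are short-lived lipid mediators made from arachidonic acid. The cyclooxygenases COX-1 (Ptgs1) and COX-2 (Ptgs2) make a common intermediate, prostaglandin H2, which terminal synthases turn into prostacyclin (Ptgis), prostaglandin E2 (Ptges), prostaglandin D2 (Ptgds) or thromboxane A2 (Tbxas1). In the vessel wall prostacyclin relaxes SMCs and restrains platelets, thromboxane A2 contracts SMCs and activates platelets, and prostaglandin E2 acts through several receptors with opposing couplings: EP2 (Ptger2) and EP4 (Ptger4) raise cAMP, and EP3 (Ptger3) mostly lowers it. Ptgir encodes the prostacyclin receptor IP, which raises cAMP.

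Values are FPKM, fragments scaled by exon length and library size, as the authors deposited them. Tests used limma on log2(FPKM + 0.1) over the 14676 features that reached 1 FPKM in at least 3 libraries, and a gene was called when its Benjamini-Hochberg adjusted p was under 0.05 and its log2 fold change over 1.5 in size. The recovered depth was 14558549 to 23107759 fragments per library. CSA 3, the shallowest, stood apart: its log2 values less the mean of CSA 1 and CSA 2 had a median of 0.60 in the lowest of 5 equal bins of genes by GC content and -1.06 in the highest. Its most frequent fragment count above 0 was 6, against 1 in each of the 11 other libraries, and fewer features were at 1 fragment than in the others (1132 to 2437), so its recovered depth and fragment counts are less certain than theirs. The values of the 10 genes in CSA against CFA mice are therefore also given without it where they could be fitted. Ccn2, the targeted gene, was at 710, 1108 and 480.1 FPKM in CFS 68, 69 and 70, at 436, 640 and 587 in CSS 54, 55 and 56, at 1013, 1105 and 564 in CFA 71, 72 and 74 and at 255, 331 and 399 in CSA 1, 2 and 3. It averaged 766 ± 318 FPKM in CFS, 554 ± 106 in CSS, 894 ± 290 in CFA and 328 ± 71.9 in CSA mice (SD, n = 3 each). It was lower in CSA than in CFA mice by limma (log2 fold change -1.41, SE 0.34, adjusted p = 0.00622), past the p threshold and short of the fold limit (without CSA 3, -1.56, adjusted p = 0.00656, past both), and CSS and CFS mice overlapped (log2 fold change -0.40, adjusted p = 1).

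The tissue label was checked with marker genes. The summed FPKM of 8 smooth muscle markers was 8221 to 10330 in CFS, 7770 to 8792 in CSS, 5544 to 8391 in CFA and 808 to 949 in CSA mice, so SMC markers were present in every library and all 8 were called lower in CSA than in CFA mice. Of 8 macrophage markers, 6 were called higher and Mertk was lower at the p threshold alone (log2 fold change -0.73, limma adjusted p = 0.0185), with sums of 256 to 491 in CFA and 1507 to 1723 in CSA mice and none at 0. The summed FPKM of 8 neutrophil markers was 11.01 to 28.0 in CFA and 521 to 577 in CSA mice, and the defining marker Ly6g was under 1 FPKM in every library. Of 8 endothelial markers, 3 were called lower, with sums of 237 to 537 in CFA and 129 to 197 in CSA mice and none at 0. T cell markers summed to 1.06 to 2.69 in CFA and 28.2 to 40.1 in CSA mice. No count of calls is given for the T cell and neutrophil lists, since all 7 T cell markers and 4 of the 7 neutrophil markers tested met the filter only with the CSA libraries. Called lower were 3 of 7 adipocyte markers (95.9 to 265 and 55.4 to 96.1) and all 3 erythrocyte markers tested (694 to 2322 and 56.04 to 566). Fibroblast markers (3184 to 3514 and 5239 to 6187) and ribosomal protein genes (1668 to 1857 and 2541 to 3273) had no called gene. Of the 8 fibroblast markers 4 were higher and 2 lower (Dpt at -1.13 and Pi16 at -1.17 on the log2 scale) at the p threshold alone, and 7 of the 8 ribosomal genes passed it. Single saline libraries held more RNA of other tissues. Skeletal muscle markers summed to 153 FPKM in CFS 68 and 244 in CSS 55, against 2.58 to 5.57 in the other libraries. Adipocyte markers summed to 662 in CFS 70, against 55.4 to 265 in the others. In whole tissue, fewer cells of a type and less RNA per cell cannot be told apart, and the part that cell composition has in the results below was not tested.

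The proximal promoters of 4 genes on which the results turn are shown first, so that members called higher and one of those called lower in CSA mice can be compared. They are the 250 bases before the RefSeq start site in GRCm38.p6, all on the plus strand, written 5′ to 3′, with every match to the motifs searched in capitals. Ptgs2, Tbxas1 and Ptger2 were called higher and Ptger3 lower in CSA than in CFA mice.
Ptgs2: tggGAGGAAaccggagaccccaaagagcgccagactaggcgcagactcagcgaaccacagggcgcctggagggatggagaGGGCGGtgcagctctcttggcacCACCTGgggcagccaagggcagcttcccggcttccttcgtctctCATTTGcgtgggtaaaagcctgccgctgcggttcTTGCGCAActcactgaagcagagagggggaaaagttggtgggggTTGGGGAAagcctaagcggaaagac
Tbxas1: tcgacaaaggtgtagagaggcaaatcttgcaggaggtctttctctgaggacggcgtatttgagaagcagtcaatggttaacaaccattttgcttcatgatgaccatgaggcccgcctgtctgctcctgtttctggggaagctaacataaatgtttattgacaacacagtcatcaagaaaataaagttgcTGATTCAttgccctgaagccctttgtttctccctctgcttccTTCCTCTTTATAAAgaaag
Ptger2: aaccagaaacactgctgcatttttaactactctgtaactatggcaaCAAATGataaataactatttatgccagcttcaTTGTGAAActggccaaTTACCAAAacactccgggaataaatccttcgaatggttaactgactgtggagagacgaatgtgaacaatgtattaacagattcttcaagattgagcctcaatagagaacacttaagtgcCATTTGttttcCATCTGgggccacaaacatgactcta
Ptger3: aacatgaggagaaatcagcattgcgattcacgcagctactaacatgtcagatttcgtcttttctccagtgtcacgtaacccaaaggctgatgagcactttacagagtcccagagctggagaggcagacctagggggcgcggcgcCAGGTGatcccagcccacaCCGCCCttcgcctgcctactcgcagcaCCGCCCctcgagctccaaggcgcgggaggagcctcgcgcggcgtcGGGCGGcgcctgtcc
These windows are chr1:150099781-150100030 for Ptgs2, chr6:38918736-38918985 for Tbxas1, chr14:44987861-44988110 for Ptger2 and chr3:157566626-157566875 for Ptger3.

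The motifs were searched on both strands: the TATA box as TATAAA, the GC box as GGGCGG, the core of the cAMP response element as TGACG, the AP-1 motif as TGANTCA, the C/EBP motif as TTNNGNAA, the E-box as CANNTG, the PU.1 motif as GAGGAA, and the kappa B and CArG box motifs by their usual consensus. Overlapping matches were kept, so a PU.1 match can touch a TATA box, as at the end of the Tbxas1 window, where 2 TATA box matches on opposite strands also overlap. The Ptgs2 window held 2 C/EBP matches, at bases -69 to -62 and -25 to -18 from the start site, with 2 E-boxes, 1 GC box and 1 PU.1 match. The Tbxas1 window held an AP-1 match at -61 to -55 and a PU.1 match at -19 to -14. The Ptger2 window held 2 C/EBP matches and 3 E-boxes, and the Ptger3 window 3 GC boxes and 1 E-box. Of 32817 promoters of the same length, 36.8% held a C/EBP match, 66.2% an E-box, 32.7% a GC box, 23.3% a PU.1 match, 12.4% a TATA box, 6.75% an AP-1 match, 17.7% the cAMP response element core, 3.90% a kappa B match and 1.47% a CArG box. A kappa B match was found in the Ptgds window and in none of the other 8 windows of these genes, and none of the 9 windows had a CArG box or a cAMP response element core. These are matches of letters and no measure of binding.

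The first comparison asked how CCN2SMCΔ aortas differed from CCN2fl/fl aortas under Ang II. In CSA mice the transcript of prostacyclin synthase was lower and those of COX-2 and thromboxane synthase were higher, and among receptors EP3 was lower and EP2 was higher, with EP4 past the p threshold and short of the fold limit. Of the 10 genes 9 were tested. Ptgs2, Tbxas1 and Ptger2 were called higher (3 genes, against a background of 8.95% of all features tested), and Ptgis and Ptger3 were called lower (2 genes, background 8.27%). Ptger2 and Tbxas1 met the expression filter through the CSA libraries, since Ptger2 reached 1 FPKM in those 3 only and Tbxas1 in those and CFA 72, so both could enter the test only by being high in those mice. The 3 CSA mice lay above the 3 CFA mice for 4 of the 9 genes, as they did for 23.4% of all features, and below them for 3, as for 25.1% of all features.

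**Figure D1:**
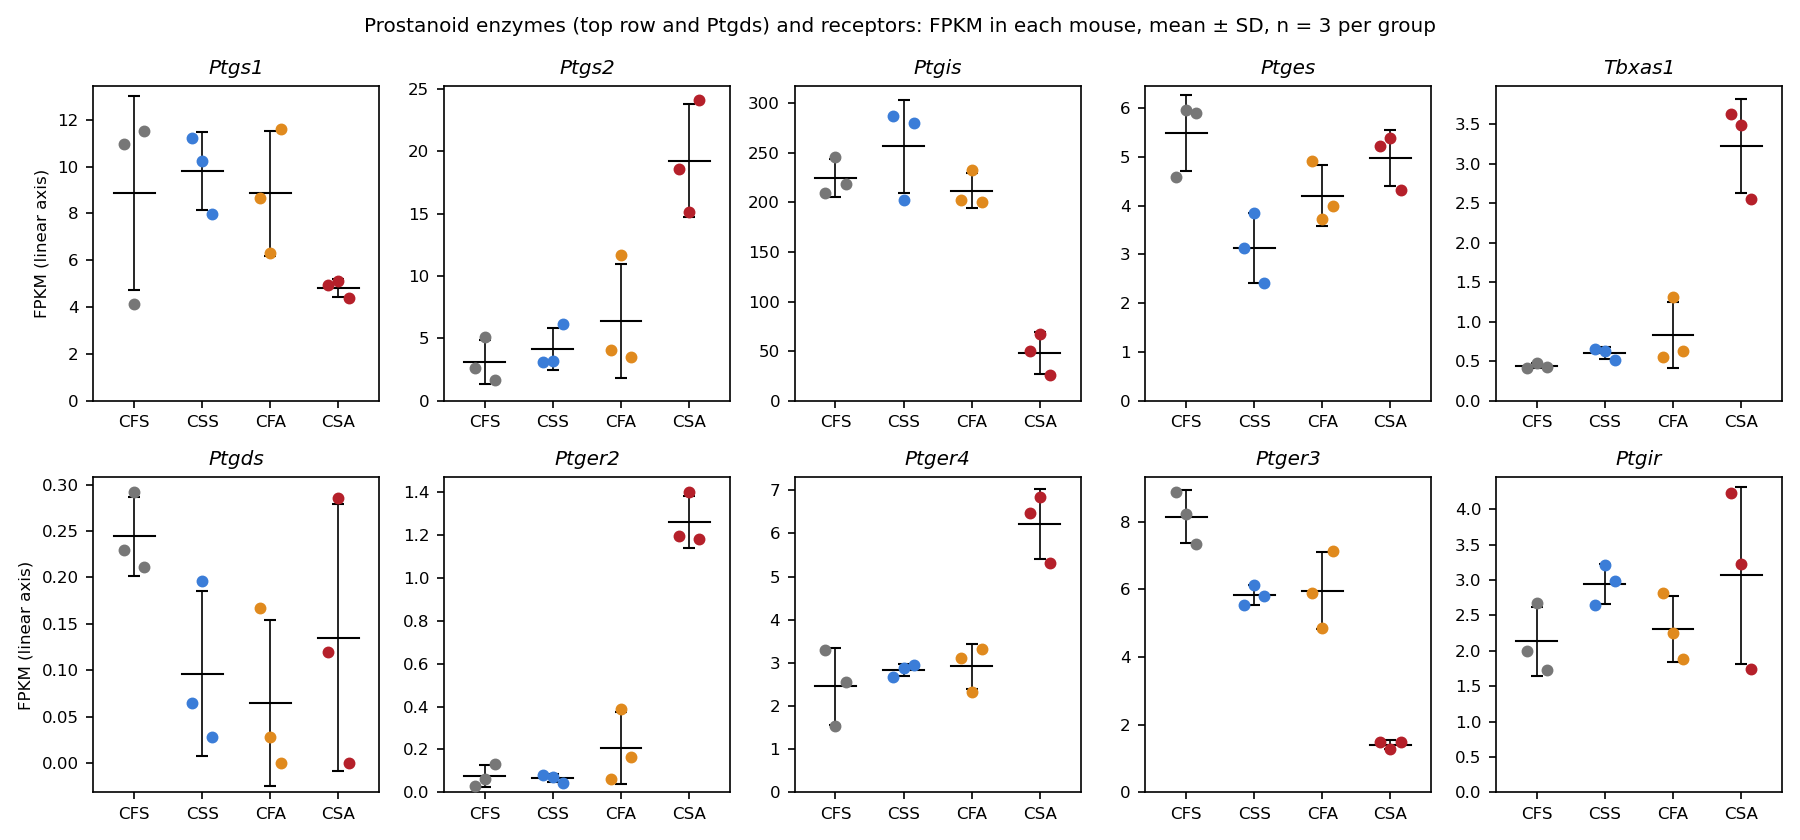
FPKM (linear vertical axes starting at or below 0, one scale per gene) of the 10 genes in each of the 12 mice, by group on the horizontal axis. Points are mice, and bars are the mean ± SD of 3 mice. The 3 CSA mice sit apart from all 9 other mice for Ptgs2, Ptgis, Tbxas1, Ptger2, Ptger3 and Ptger4, and overlap with some of them for Ptgs1, Ptges, Ptgds and Ptgir. Against the 3 CFA mice alone, the CSA mice lay above for 23.4% and below for 25.1% of all features tested. The share of features that sit apart from all 9 mice was not counted.

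Ptgs2 encodes COX-2, the inducible cyclooxygenase, which rises with cytokines, growth factors and mechanical injury. It lies at chr1:150100031-150108227 on GRCm38, a protein-coding gene that shares no exonic base with another annotated gene. It was at 2.62, 5.09 and 1.68 FPKM in CFS 68, 69 and 70, at 3.13, 3.20 and 6.13 in CSS 54, 55 and 56, at 4.04, 11.7 and 3.52 in CFA 71, 72 and 74, and at 18.5, 15.1 and 24.1 in CSA 1, 2 and 3. Every CSA mouse was above every other mouse, and CFA 72 was the highest of the remaining 9. By limma Ptgs2 was 3.38-fold higher in CSA than in CFA mice (log2 fold change 1.76, SE 0.49, adjusted p = 0.0146). It did not pass when CFA 71 was left out (log2 fold change 1.54, adjusted p = 0.0585) or when CFA 74 was (1.44, adjusted p = 0.0638), which leaves CFA 72 and 1 other mouse in the group, and it passed without CSA 3 (1.58, adjusted p = 0.0437). Ptgs2 did not pass limma's treat test at a log2 limit of 1 (adjusted p = 0.425, and 0.0898 in CSA with CSS mice). Its exons (42.6% GC) are in the lowest of the 5 GC bins, and its log2 value in CSA 3 differed from the mean of CSA 1 and CSA 2 by 0.52.

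Ptgs1 encodes COX-1, the constitutive cyclooxygenase of endothelium and platelets, at chr2:36230426-36252272. It was at 10.96, 4.13 and 11.5 FPKM in CFS mice, at 11.2, 10.2 and 7.99 in CSS, at 8.65, 6.31 and 11.6 in CFA and at 4.95, 5.12 and 4.39 in CSA mice. All 3 CSA mice were below the 3 CFA mice, while CFS 69 was lower than any CSA mouse. It differed by -0.83 on the log2 scale (SE 0.35) and did not pass (limma, adjusted p = 0.0855), nor did it without CSA 3 (-0.76, adjusted p = 0.157). The summed FPKM of the 8 endothelial markers was 122 in CFS 69 against 478 and 474 in CFS 68 and 70. In CSA against CFA mice 3 of the 8 were called lower, 4 others were lower and Kdr was higher without passing, and the part of endothelial RNA in the Ptgs1 values was not tested.

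Set against each other within a library, the cyclooxygenases changed order. The log2 ratio of Ptgs2 to Ptgs1, on FPKM + 0.1 and so per length of transcript, averaged -1.48 ± 1.57 in CFS, -1.28 ± 0.78 in CSS, -0.63 ± 1.34 in CFA and 1.95 ± 0.45 in CSA mice (SD, n = 3 each). It was above 0 in all 3 CSA mice, at 1.54 to 2.43 with the highest in CSA 3, and in 2 of the other 9, CFS 69 at 0.30 and CFA 72 at 0.88.

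Ptgis, prostacyclin synthase, was the most abundant of the 10 genes in each library. Its lead was small in CSA 3 (26.1 FPKM, against 24.1 for Ptgs2), the library that stood apart by GC content, and Ptgis was lower in CSA mice. It lies at chr2:167191805-167240604, and 6.08% of its exonic bases are shared with the antisense gene 1110018N20Rik. It was at 209, 246 and 218 FPKM in CFS mice, at 287, 202 and 280 in CSS, at 202, 232 and 200.2 in CFA and at 50.2, 67.7 and 26.1 in CSA mice. The CFS, CSS and CFA mice overlapped and the 3 CSA mice lay under all of them. By limma Ptgis was 4.72-fold lower in CSA than in CFA mice (log2 fold change -2.24, SE 0.29, adjusted p = 1.22e-04). Its exons (57.7% GC) are in the highest of the 5 GC bins, and its log2 value in CSA 3 differed from the mean of CSA 1 and CSA 2 by -1.16. Without CSA 3 the log2 fold change was -1.85 (limma, adjusted p = 2.00e-05).

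Tbxas1 encodes thromboxane A synthase, an enzyme best known from platelets and macrophages, at chr6:38875404-39084585. It was at 0.42, 0.48 and 0.43 FPKM in CFS mice, at 0.66, 0.63 and 0.52 in CSS, at 0.56, 1.31 and 0.63 in CFA and at 3.63, 3.49 and 2.55 in CSA mice. Each CSA mouse was above all other mice, with 355 to 674 recovered fragments against 67 to 253 elsewhere, and CFA 72 was again the highest of the rest. By limma it was 3.74-fold higher in CSA than in CFA mice (log2 fold change 1.90, SE 0.31, adjusted p = 6.00e-04), and 2.06 on the log2 scale without CSA 3 (adjusted p = 9.58e-04). With a pseudocount of 1 the log2 fold change was 1.22 (adjusted p = 1.55e-04), short of the fold limit, and limma's treat test at a log2 limit of 1 did not pass (adjusted p = 0.0603). CFA 72 also had the highest summed FPKM of the CFA mice for macrophage markers (491 against 270 and 256) and for neutrophil, T cell and mast cell markers. For B cell markers the highest sum was in CFA 71 (2.77, against 2.50 in CFA 72). Of 5 platelet and megakaryocyte markers tested none was called by limma, Gp1ba was lower at the p threshold alone (log2 fold change -1.26, adjusted p = 0.0125), the summed FPKM of the list was 36.4 to 50.4 in CFA and 24.0 to 55.1 in CSA mice, and Gp1bb was at 0 in every library. The part of macrophage or platelet RNA in the Tbxas1 values, and of macrophage RNA in the Ptgs2 values, was not tested.

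Ptges encodes the inducible microsomal prostaglandin E synthase that is commonly paired with COX-2, at chr2:30889471-30929863. It was at 4.58, 5.96 and 5.90 FPKM in CFS mice, at 3.13, 3.86 and 2.41 in CSS, at 4.90, 3.72 and 3.98 in CFA and at 5.21, 5.38 and 4.32 in CSA mice. The CSA range overlapped the CFA range and the log2 fold change of 0.24 did not pass (95% interval -0.18 to 0.67, limma adjusted p = 0.346). The log2 fold change was 0.34 without CSA 3 (adjusted p = 0.190).

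Ptgds, the lipocalin-type prostaglandin D synthase at chr2:25466709-25470046, was below the filter and not tested by limma. It was at 0.23, 0.29 and 0.21 FPKM in CFS mice, 0.07, 0.20 and 0.03 in CSS, 0.17, 0.03 and 0 in CFA and 0.12, 0.29 and 0 in CSA mice, which is 0 to 10 fragments per library. At 0 a library still allows up to 3 fragments. CSA and CFA mice overlapped (exact two-sided permutation test, p = 0.7, with 0.1 the smallest that 3 against 3 can give), and no difference was detectable at this depth.

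The terminal synthases were also compared with each other inside each library. The log2 ratio of Ptges to Ptgis averaged -5.34 ± 0.15 in CFS, -6.32 ± 0.58 in CSS, -5.63 ± 0.29 in CFA and -3.15 ± 0.54 in CSA mice, and that of Tbxas1 to Ptgis -8.69 ± 0.04, -8.50 ± 0.35, -7.91 ± 0.48 and -3.77 ± 0.47 (SD, n = 3 each). Ptgis transcript per length remained in excess of both in every library, by 8.85-fold over Ptges and 13.6-fold over Tbxas1 in CSA mice, against 49.4-fold and 240.4-fold in CFA mice. In CSA 3 these ratios, -2.57 and -3.31, were nearest to 0, and its Ptgis value was the lowest.

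**Figure D2:**
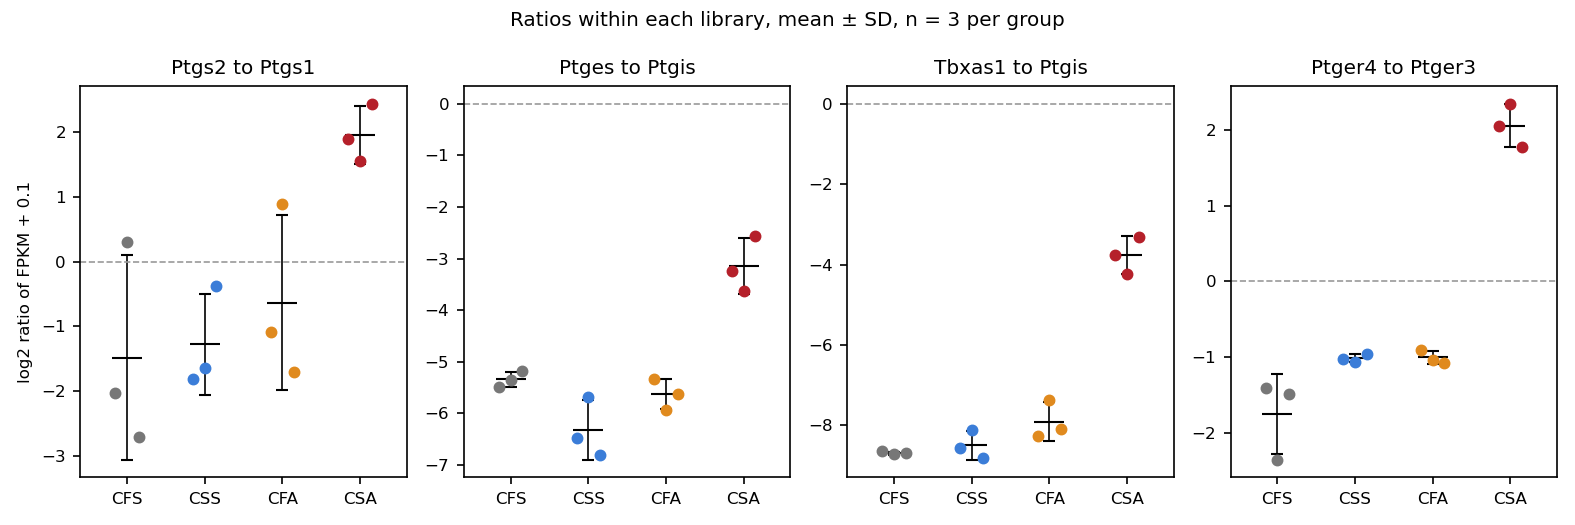
Log2 ratio of FPKM + 0.1 between pairs of genes in the same library (vertical axes; 0, dashed, is equal level per length) by group, with points for mice and mean ± SD of 3. The CSA mice are above the 9 others in all 4 panels, and are the only group with every mouse above 0 for Ptgs2 to Ptgs1 (1.54 to 2.43) and Ptger4 to Ptger3 (1.78 to 2.34).

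Among the receptors, Ptger3 was lower in CSA mice, with the smallest SE of the 9 tested genes. EP3 signals mainly through the inhibitory G protein and, in arteries, favours contraction. The gene lies at chr3:157566892-157645888 and was at 8.88, 8.21 and 7.34 FPKM in CFS mice, 5.54, 6.13 and 5.81 in CSS, 5.89, 4.85 and 7.12 in CFA and 1.49, 1.27 and 1.48 in CSA mice. CFS mice were highest, CSS and CFA mice overlapped below them, and CSA mice were lowest with no overlap. By limma it was 3.97-fold lower in CSA than in CFA mice (log2 fold change -1.99, SE 0.15, adjusted p = 4.25e-06) and -2.02 without CSA 3 (adjusted p = 5.47e-06).

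Ptger2 encodes EP2, which couples to the stimulatory G protein and cAMP, at chr14:44988195-45003820. It was at 0.03, 0.06 and 0.13 FPKM in CFS mice, 0.08, 0.07 and 0.04 in CSS, 0.06, 0.39 and 0.16 in CFA and 1.19, 1.40 and 1.18 in CSA mice. In fragments these were 3 to 43 outside the CSA group and 94 to 154 within it, with no overlap. By limma it was 4.92-fold higher in CSA than in CFA mice (log2 fold change 2.30, SE 0.53, adjusted p = 0.00498), a value that the pseudocount holds down, as the ratio of mean FPKM was 6.13. With a pseudocount of 1 the log2 fold change was 0.91 and short of the fold limit (adjusted p = 3.67e-04), and without any 1 CSA library the gene no longer met the filter and was not tested. In limma's treat test at a log2 limit of 1 Ptger2 did not pass (adjusted p = 0.116).

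Ptger4 encodes EP4, the other cAMP-raising prostaglandin E2 receptor, at chr15:5206661-5244187. It was at 3.29, 1.53 and 2.55 FPKM in CFS mice, 2.67, 2.88 and 2.94 in CSS, 3.11, 2.32 and 3.32 in CFA and 6.48, 6.85 and 5.31 in CSA mice. CSA mice were above all others. By limma it was 2.10-fold higher in CSA than in CFA mice (log2 fold change 1.07, SE 0.25, adjusted p = 0.00505), past the p threshold and short of the fold limit, and 1.18 on the log2 scale without CSA 3 (adjusted p = 0.00442). Of its exonic bases 16.5% are shared with Gm15937 and Ttc33 on the other strand, and since the strand setting of the counting is not given in the sources used here, reads of these genes and of Ptger4 cannot be told apart there.

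Within libraries, Ptger4 exceeded Ptger3 per length in the CSA mice alone. The log2 ratio of Ptger4 to Ptger3, a pair chosen after the values were seen, averaged -1.75 ± 0.52 in CFS, -1.02 ± 0.05 in CSS, -1.0 ± 0.09 in CFA and 2.06 ± 0.28 in CSA mice (SD, n = 3 each), and was below 0 in each of the 9 other mice.

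Ptgir, the prostacyclin receptor at chr7:16906490-16910905, showed no such pattern. It was at 2.0, 2.68 and 1.72 FPKM in CFS mice, 2.65, 3.20 and 2.99 in CSS, 2.81, 2.25 and 1.88 in CFA and 4.22, 3.22 and 1.74 in CSA mice. CSA mice held both the highest and nearly the lowest value of the series. The difference of 0.32 on the log2 scale from CFA mice did not pass (95% interval -0.33 to 0.97, limma adjusted p = 0.411). CSA 3 differed from the mean of CSA 1 and CSA 2 by -1.04 on the log2 scale, and Ptgir is in the next to highest GC bin. Without it the log2 fold change was 0.67 (adjusted p = 0.0308), under the fold limit.

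**Figure D3:**
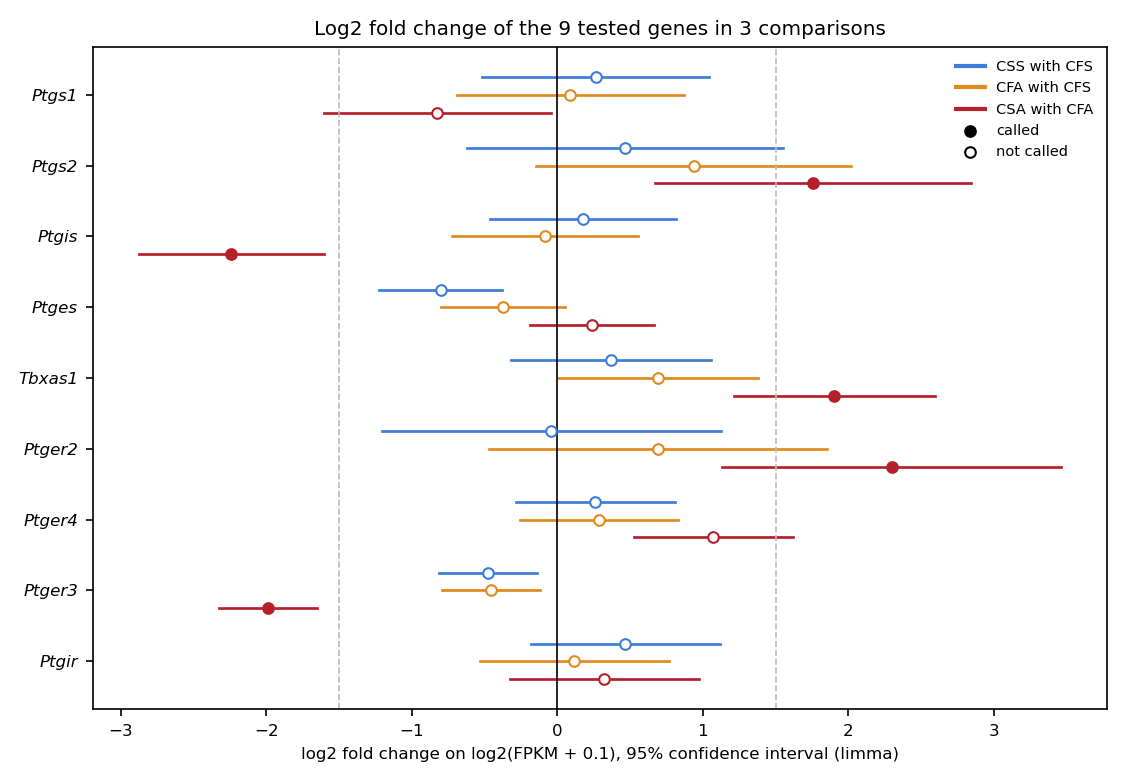
Log2 fold change (horizontal axis, on FPKM + 0.1) with 95% confidence intervals from limma for the 9 tested genes in 3 comparisons, with filled points for called genes and dashed lines at the fold limit of 1.5. Filled points occur in CSA with CFA only, on the right for Ptgs2, Tbxas1 and Ptger2 and on the left for Ptgis and Ptger3.

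Under saline, the comparison of CSS with CFS mice asked whether genotype alone moved these genes, although a loss of Ccn2 transcript was not shown in the CSS libraries. In a separate cohort, the paper reports by Western blot a reduced CCN2 protein content in CCN2SMCΔ aortas under saline and under Ang II. None of the 9 was called by limma (background 0.0136% of features), and 2 of the 9 had an unadjusted p under 0.05, against 924 of all 14676 features tested. By limma the log2 fold change was -0.80 for Ptges (SE 0.19, adjusted p = 0.332), -0.47 for Ptger3 (SE 0.15, adjusted p = 0.562) and 0.37 for Tbxas1 (SE 0.31, adjusted p = 1). Intervals for the genes that differed under Ang II were -0.62 to 1.55 for Ptgs2, -0.46 to 0.81 for Ptgis, -0.32 to 1.06 for Tbxas1, -1.20 to 1.12 for Ptger2 and -0.81 to -0.14 for Ptger3, none of them adjusted for the number of features.

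In mice with intact CCN2, Ang II alone was compared in CFA with CFS mice. Again none of the 9 was called by limma (background 0.0273%) and 2 of the 9 had an unadjusted p under 0.05, against 1383 of all 14676 features tested. The limma log2 fold change was -0.46 for Ptger3 (SE 0.15, adjusted p = 0.345) and 0.69 for Tbxas1 (SE 0.31, adjusted p = 0.527). Ptgs2 had a log2 fold change of 0.94 with overlapping groups (SE 0.49, adjusted p = 0.616). For both Tbxas1 and Ptgs2 the highest CFA value was in CFA 72.

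In CCN2SMCΔ mice, Ang II was compared in CSA with CSS mice, which use the same CSA libraries as above. The same 5 genes were called: Ptgs2 (log2 fold change 2.23), Tbxas1 (2.23) and Ptger2 (3.03) higher, against a background of 10.9%, and Ptgis (-2.50) and Ptger3 (-1.97) lower, against 9.36%, with limma adjusted p of 0.00331 or less. Since Tbxas1 and Ptger2 met the expression filter through the CSA libraries, the number called higher supports nothing. Ptges (0.67, adjusted p = 0.0149), Ptger4 (1.10, adjusted p = 0.00367) and Ptgs1 (-1.0, adjusted p = 0.0382) passed the p threshold short of the fold limit. Ptgir did not pass (-0.03, adjusted p = 0.946). Without CSA 3 the log2 fold changes were 2.06 for Ptgs2, 2.38 for Tbxas1, -2.12 for Ptgis and -2.01 for Ptger3, all still called, Ptger2 was not tested, and Ptgs1 no longer passed the p threshold (-0.94, adjusted p = 0.0838).

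The interaction term, the genotype difference under Ang II less that under saline, tested whether the 2 genotype differences were unequal. It was called for Ptger2 (2.34, SE 0.75, adjusted p = 0.0394) and Tbxas1 (1.53, SE 0.44, adjusted p = 0.0252), against a background of 7.89% called higher, and for Ptgis (-2.42, SE 0.41, adjusted p = 0.00159) and Ptger3 (-1.51, SE 0.22, adjusted p = 5.82e-04), against 7.31% called lower. Ptger2 and Tbxas1 could enter the test only by being high in the CSA libraries (and, for Tbxas1, CFA 72), so their number supports nothing. For Ptges the interaction term was 1.04 (SE 0.27, adjusted p = 0.0162), short of the fold limit. For Ptgs2 it was 1.29 (SE 0.69, adjusted p = 0.203) and did not pass, so a difference between the saline and Ang II settings was not shown for that gene. Of the 4, Ptgis alone kept its call without each of the 12 mice in turn (-2.72 to -2.03 on the log2 scale); without CSA 3 it was -2.03 (adjusted p = 1.59e-04). The terms for Ptger3 (-1.55, adjusted p = 3.94e-04) and Tbxas1 (1.69, adjusted p = 0.0210) were called without CSA 3 as well, and Ptger2 was then not tested.

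Genes whose profile over the 12 libraries lay nearest to those of the cyclooxygenases and prostacyclin synthase were found by the root mean square difference of standardised log2 values, where 0 is an identical shape. Nearest to Ptgis were Tcap (0.11), Adamtsl5 (0.11) and Lims2 (0.12). Nearest to Ptgs1 were Mmrn2 (0.23), Clec14a (0.23) and Scn3b (0.26). Of the 3 nearest to Ptgs2, 1 was named, Etv4 (0.28), and the other 2 were features with no Ensembl identifier. Among the members, Tbxas1 was nearer to Ptgs2 (0.42) than Ptger2 (0.51) or Ptger4 (0.82), and Ptger3 was the nearest of the 8 others tested to Ptgis (0.43). Many other features lay nearer: by distance to Ptgs2, Tbxas1 ranked 221, Ptger2 788 and Ptger4 3229, and by distance to Ptgis, Ptger3 ranked 1299. All profiles share the same 12 libraries, so these are descriptions.

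The rest of the pathway was read from fixed lists in the same comparison of CSA with CFA mice, in which all features had a median log2 fold change of -0.04, with 8.95% called higher and 8.27% lower. Of 12 genes that release arachidonic acid or act beside it, 9 were tested, 1 was called higher and 3 lower (median -0.21). Pla2g7, the lipoprotein-associated phospholipase A2 of macrophages, rose, with 3.03 to 6.96 FPKM in CFA and 31.0 to 65.2 in CSA mice (log2 fold change 3.18, limma adjusted p = 2.14e-05). Pla2g5, a secreted phospholipase, fell (-2.82, adjusted p = 0.00787), as did Mgll, which frees arachidonic acid from an endocannabinoid (-1.92, adjusted p = 1.83e-04), and Pla2g2d (-1.66, adjusted p = 3.47e-04). Pla2g4a, the cytosolic phospholipase that usually feeds cyclooxygenases, did not pass (0.39, adjusted p = 0.129). Without CSA 3 the calls stood for Pla2g7 (log2 fold change 2.89), Pla2g5 (-3.12), Mgll (-1.59) and Pla2g2d (-1.58), and Pla2g4a was at 0.18.

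Of 7 other synthases 6 were tested and 1 was called, Hpgds, the haematopoietic prostaglandin D synthase, which rose, with 0.88 to 1.68 FPKM in CFA and 5.30 to 9.25 in CSA mice (log2 fold change 2.32, limma adjusted p = 2.01e-04; 2.11 and still called without CSA 3). The constitutive prostaglandin E synthases Ptges2 (-0.22, adjusted p = 0.626) and Ptges3 (0.06, adjusted p = 0.785) did not pass, and without CSA 3 they were at 0.22 and -0.08. Of 5 genes of inactivation and transport none was called by limma, and at an adjusted p under 0.05 alone 1 was higher, Abcc4, an exporter of prostaglandins (0.95, adjusted p = 0.00275; 0.87 without CSA 3). Hpgd, which inactivates prostaglandins, was at 3.51, 5.29 and 12.6 FPKM in CSA mice and did not pass (-0.27, adjusted p = 0.584), and without CSA 3 it was lower at the p threshold alone (-0.78, adjusted p = 0.00732). Of 5 further receptors only Tbxa2r, the thromboxane receptor, was expressed enough to be tested, and it was lower: 20.5, 15.9 and 18.6 FPKM in CFA mice and 6.88, 6.68 and 0.88 in CSA mice (log2 fold change -2.35, SE 0.59, adjusted p = 0.00830), with CSA 3 below the other 2. Without CSA 3 the log2 fold change was -1.41 (adjusted p = 3.73e-05), short of the fold limit. Ptger1, Ptgfr, Ptgdr and Ptgdr2 were not tested.

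Downstream of these receptors, 17 genes of cAMP signalling were tested, 0 were called higher and 3 lower (median -0.63), and a further 5 passed the p threshold alone by limma, Adcy3, Adcy6, Prkaca and Prkacb lower and Crem higher (0.56, adjusted p = 0.0290), which did not pass without CSA 3 (0.42, adjusted p = 0.0640). Adcy5, an adenylyl cyclase, fell, with 127 FPKM in all 3 CFA mice and 5.11 to 15.6 in CSA mice (log2 fold change -3.78, adjusted p = 7.33e-06). Adcy9 (-1.86, adjusted p = 2.37e-04) and Pde3a, a cAMP phosphodiesterase of SMCs (-1.85, adjusted p = 2.63e-06), fell too, and without CSA 3 Adcy5 (-3.37) and Pde3a (-1.82) were still called and Adcy9 was just short of the fold limit (-1.49, adjusted p = 1.65e-05). Gnas, the stimulatory G protein itself, did not pass (-1.32, adjusted p = 0.0864), and was at -0.46 without CSA 3 (adjusted p = 0.141).

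**Figure D4:**
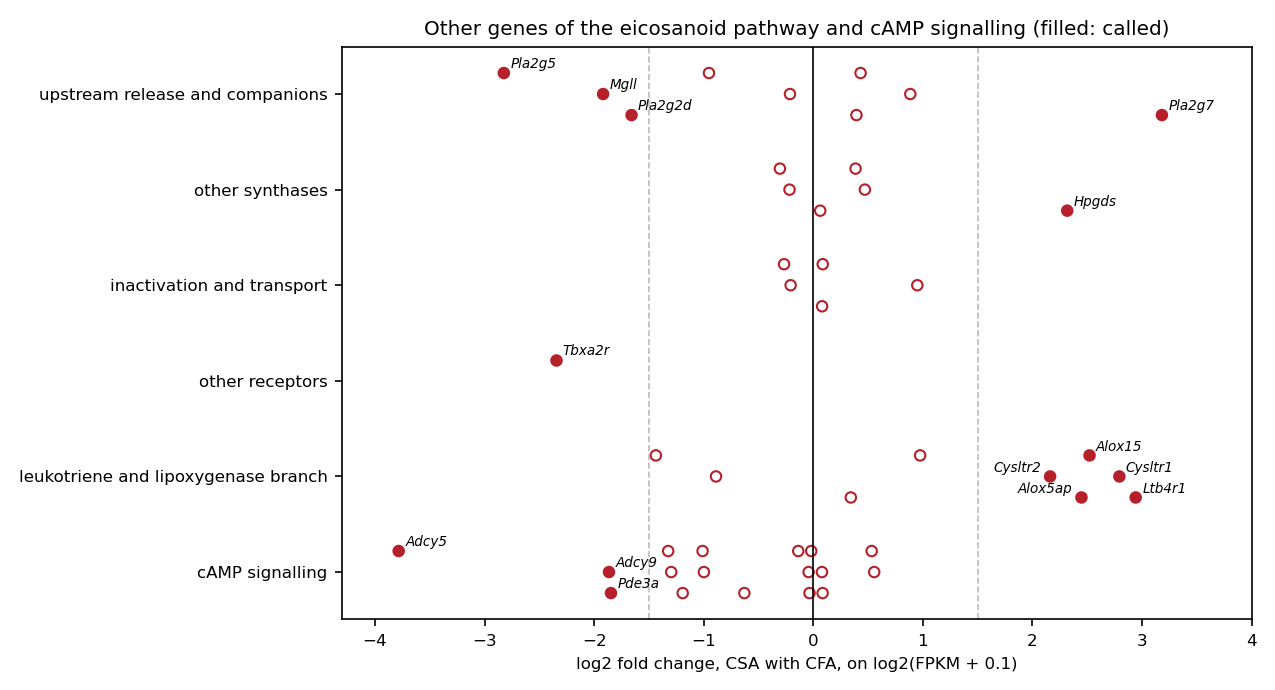
Difference of CSA from CFA mice (horizontal axis, as log2 fold change on FPKM + 0.1) of the other tested pathway genes, 1 row per fixed list, with filled and named points for called genes and dashed lines at the fold limit of 1.5. Of 47 genes 7 are filled on the right and 7 on the left, the former mostly in the leukotriene and lipoxygenase row and the latter in the release, receptor and cAMP rows.

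Over all 47 tested genes of these lists, 7 were called higher (background 8.95%) and 7 lower (background 8.27%) in CSA than in CFA mice. Of the 7 called higher, 4 met the filter only with the CSA libraries: Cysltr2 reached 1 FPKM in those 3 alone, Alox15 and Cysltr1 in those and CFA 72, and Ltb4r1 in those, CFA 72 and CFA 74. By limma none of the 47 was called under saline in CSS against CFS mice (background 0.0136%), and none in CFA against CFS mice (background 0.0273%).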

How the data were processed

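The authors deposited 1 table of FPKM, without pooling, from RNA-Seq of 12 aortas (paired reads of 150 bases). The submitters' processing notes name HISAT2 2.0.5, StringTie 1.3.3b, featureCounts 1.5.0-p3 and mm10. All per-sample columns were used (0 left out). Exon lengths of GENCODE M21 (GRCm38) returned whole fragments (within 0.05) for 98.1% to 98.5% of values under 100 fragments, which gave the depth; these limits cover counting error only. The annotation and the scaling of the FPKM are not given in the sources used here. Mice were grouped by their sample titles.

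Values were analysed as log2(FPKM + 0.1) with limma 3.58.1 in R 4.3.3, 1 coefficient per group over all 12 libraries, eBayes with trend and robust settings, and Benjamini-Hochberg adjustment over 14676 features. FPKM are no counts, so no count model was used, and the added 0.1 makes fold changes on this scale understate those of low genes. On simulated data 181 of 192 tested genes changed 8-fold in CSA against CFA mice were called, and 2 unchanged genes of the 13688 run were called. The simulated noise was independent and had the same spread in every library, so the GC skew of CSA 3 was not in it. The members called in CSA against CFA mice changed by less than 8-fold, so the simulation gives no rate for their calls. Python 3.11.15 was used for tables.

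Members, lists and tests were chosen with earlier results of these data known. Named were all members, up to 3 called genes per list by size of change, Ccn2, and the 3 nearest profiles of Ptgs1, Ptgs2 and Ptgis. Outside this rule, Pla2g2d, Alox5ap, Cysltr2 and non-called genes were added after their values were seen. Prxl2b was matched as Fam213b. Promoters (RefSeq, GRCm38.p6) matched 9 of 10 members. Alternatives were other pseudocounts, filters, scalings, limma settings and leaving out each mouse.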

Additional observations from a re-analysis of the deposited data

Results flagged for a closer look

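The interaction test was called for Ptgis, Ptger2, Ptger3 and Tbxas1, against backgrounds of 7.89% of features called higher and 7.31% lower. Ptger2 and Tbxas1 entered the test through the CSA libraries (and, for Tbxas1, CFA 72). On the log2 scale the genotype difference under Ang II less that under saline was -2.42 for Ptgis, 2.34 for Ptger2, -1.51 for Ptger3 and 1.53 for Tbxas1 (limma). What drew attention is that these genotype differences were unequal between the treatments. Outside the CSA group Ptger2 was at most 0.39 FPKM and Tbxas1 at most 1.31. The calls for Ptger2, Ptger3 and Tbxas1 were each lost without some single mouse, as listed with the processing alternatives.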

How the results depend on the processing

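Of 892 alternative values for the single genes, 843 kept direction and call, 34 lost the call, 1 gained it and 14 changed sign; none of the calls changed sign. In CSA with CFA mice 5 genes were called, against 3 with a pseudocount of 1, 3 at a mean of at least 5 FPKM, 2 with limma's treat at a log2 limit of 1, and 4 to 5 when 1 mouse was left out. In CSA with CSS mice the count of 5 became 8 with no fold limit, 3 with a pseudocount of 1, 3 at a mean of at least 5 FPKM and 4 to 5 without 1 mouse. The interaction count of 4 became 1 with a pseudocount of 1, 2 at a mean of at least 5 FPKM, 1 with treat and 1 to 5 without 1 mouse: 1 without CFA 74 or CSA 2, and 2 without CFS 69, CFS 70, CSS 55, CSS 56, CFA 71 or CSA 1. The Ptger2 interaction was lost without any of CFS 69, CFS 70, CSS 54, CSS 55, CSS 56, CFA 71 or CFA 74 (1.96 to 2.41), that of Ptger3 fell short of the fold limit without CFS 70, CSS 55, CFA 74 or CSA 2 (-1.48 to -1.38), and just so with each library scaled to the same sum, and that of Tbxas1 was lost without CFS 69, CSS 56, CFA 71, CFA 74, CSA 1 or CSA 2 (1.32 to 1.49). The Ptgs2 interaction passed only without CFA 72 (1.83, adjusted p = 0.0435). Of the other pathway genes, 14 called in CSA with CFA mice became 26 with no fold limit, 7 at a mean of at least 5 FPKM, 9 with treat and 11 to 15 without 1 mouse; 16 in CSA with CSS became 25 with no fold limit, 9 at that mean and 12 to 16 without 1 mouse; 13 for the interaction became 8 at that mean, 4 with treat and 9 to 12 without 1 mouse. The mean of at least 5 FPKM tests fewer genes, the absent fold limit and treat move the threshold, a pseudocount of 1 lowers the fold of low genes, and leaving out a mouse uses fewer samples; otherwise the cause was not tested. Signs changed for differences that did not pass: with array weights Ptgs1 in CFA with CFS was -0.016 and Ptgir in CSA with CSS 0.24. Without 1 mouse, ranges that crossed 0 were -0.21 to 0.52 (Ptgs1), -0.23 to 0.19 (Ptger2) and -0.031 to 0.50 (Ptger4) in CSS with CFS; -0.38 to 0.35 (Ptgs1), -0.0044 to 0.52 (Ptger4) and -0.027 to 0.29 (Ptgir) in CFA with CFS; and for Ptgir -0.30 to 0.32 in CSA with CSS and -0.41 to 0.20 in the interaction. CFS 69 set the negative ends for Ptgs1 and Ptger4, and CSA 3 the positive ends for Ptgir in CSA mice. No paired analysis was possible because the labels give the groups no shared replicate numbers. Depth limits Ptgds and, outside CSA mice, Ptger2.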

Other observations

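The leukotriene and lipoxygenase branch, which draws on the same arachidonic acid, was measured beside the prostanoid genes. Of 11 listed genes 9 were tested, and Ltb4r1, Cysltr1, Alox15, Alox5ap and Cysltr2 were called higher by limma in CSA than in CFA mice (backgrounds 8.95% higher and 8.27% lower). Cysltr2 reached 1 FPKM in the 3 CSA libraries only, Alox15 and Cysltr1 in those and CFA 72, and Ltb4r1 in those, CFA 72 and CFA 74, so these 4 could enter the test only by being high there, and their number supports nothing. Ltb4r1, the high-affinity leukotriene B4 receptor of leukocytes, was at 0.46, 1.45 and 1.02 FPKM in CFA 71, 72 and 74 and at 9.68, 10.6 and 4.12 in CSA 1, 2 and 3 (log2 fold change 2.94, adjusted p = 4.61e-04). Cysltr1, a cysteinyl leukotriene receptor, rose, with 0.71 to 1.07 FPKM in CFA and 5.08 to 9.39 in CSA mice (2.79, adjusted p = 3.47e-05). Alox15, a lipoxygenase of macrophages and eosinophils, was at 0.58 to 2.30 in CFA and 4.53 to 8.71 in CSA mice (2.52, adjusted p = 0.00259), and CFA 72 held the highest CFA value of all 3 genes. Alox5ap presents arachidonic acid to 5-lipoxygenase. Without CSA 3 Ltb4r1 (3.37), Cysltr1 (2.51), Alox15 (2.61) and Alox5ap (2.55) were still called, and Cysltr2 no longer met the expression filter. At the p threshold alone Alox5, the 5-lipoxygenase (0.97, adjusted p = 0.00173), and Lta4h, which makes leukotriene B4 (0.34, adjusted p = 0.0340), were higher and Alox12 was lower (-1.44, adjusted p = 0.0262), and did not pass without CSA 3 (-1.35, adjusted p = 0.0540). The summed macrophage and neutrophil markers were higher in CSA mice too, and their part in these values was not tested.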
